A study of Mus musculus with 4 samples.

Results

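The 10 genes of the circadian clock described here were followed through 4 libraries of mouse fat stroma: Arntl, Clock, Per1, Per2, Per3, Cry1, Cry2, Nr1d1, Nr1d2 and Dbp. They were picked by symbol, and all 10 were found among the 55536 rows of the table and passed the filter on low values. Each library was made from the stromal vascular fraction, the cells other than adipocytes that are released when fat is digested, of inguinal white fat from wild-type male mice at postnatal day 21. A library is 1 pool of 3 mice, and there was 1 library for each combination of offspring group and treatment. These were LnF1 with water, LnF1 with 1,3BD, ObF1 with water and ObF1 with 1,3BD, and the title of the series speaks of parental obesity. All 4 groups share genotype, sex, age and tissue. The sources used here give neither how nor for how long 1,3BD was given, nor the time of day at which tissue was taken, nor whether cells were cultured before RNA was made.

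The circadian clock of a cell is a loop of transcription. ARNTL (also called BMAL1) pairs with CLOCK, binds E-box sequences and switches on the Per and Cry genes, whose proteins return to the nucleus and block that pair. In a side loop the same pair drives Nr1d1 and Nr1d2, whose REV-ERB proteins repress Arntl at ROR elements, while Dbp, a PAR bZIP factor and a direct target of the pair, carries the rhythm to output genes through D-box sequences. In white fat the clock times lipid storage and release, and Per1 and Per2 can also be induced directly by glucocorticoids and by cAMP.

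Promoter sequence was at hand for 9 of the 10 genes, in windows of 250 bases upstream of each RefSeq start (GRCm38.p6), and 3 of these 9 genes held a letter match to a clock element. The motifs searched, on both strands, were the E-box CACGTG, the D-box TTATGTAA or TTACGTAA, the ROR/REV-ERB element ANTAGGTCA or ANTGGGTCA, and the CRE TGACGTCA. The E-box stood in a window of Per1, 166 bases before the start, and of Cry1, 60 bases before it, and in 6.86% of all 27025 genes with a window. Per3 held 2 copies of the D-box, at 205 and 158 bases before its start, against at least 1 copy in 1.10% of genes. None of these 9 genes held the ROR/REV-ERB element (1.37% of genes) or the CRE (1.77%) in these windows, and no match says only that these letters are not there. Not all windows were purely upstream: annotated untranslated exon covered 159 of the 250 bases for Dbp and 138 for 1 Clock window. The starts of Cry2, of Nr1d1 and of the Per1 window without a match were not found in GENCODE transcripts. The 3 windows with a match are printed 5′ to 3′ on the strand of the gene, with the matched letters in capitals. They are Per1 at chr11:69098699-69098948 (plus strand), Cry1 at chr10:85185055-85185304 (minus strand) and Per3 at chr4:151044666-151044915 (minus strand).
Per1: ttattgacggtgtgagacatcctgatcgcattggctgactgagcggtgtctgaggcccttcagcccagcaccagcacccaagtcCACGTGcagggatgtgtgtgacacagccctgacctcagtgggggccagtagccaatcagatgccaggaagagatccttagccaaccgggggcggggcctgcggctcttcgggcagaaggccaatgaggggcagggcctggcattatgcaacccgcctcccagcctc
Cry1: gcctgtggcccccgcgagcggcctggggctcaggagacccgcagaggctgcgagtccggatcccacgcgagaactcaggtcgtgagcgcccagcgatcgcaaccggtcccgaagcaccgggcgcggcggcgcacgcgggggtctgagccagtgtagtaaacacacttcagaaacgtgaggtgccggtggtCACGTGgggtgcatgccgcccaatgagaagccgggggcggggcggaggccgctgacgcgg
Per3: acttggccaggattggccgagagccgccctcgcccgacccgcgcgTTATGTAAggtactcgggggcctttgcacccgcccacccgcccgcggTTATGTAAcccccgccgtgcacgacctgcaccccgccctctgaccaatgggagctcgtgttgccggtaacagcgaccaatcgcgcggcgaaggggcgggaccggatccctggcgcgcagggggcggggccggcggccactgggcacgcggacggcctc
The first 2 belong to genes that rose with 1,3BD, and the last to a gene that did not pass the test. Nr1d2, which also rose, and Dbp, which fell, held no match, and Per2, which rose, had no window. A match is a description of the letters and does not show that a factor binds there.

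The libraries held between 24586827 and 26000090 reads, recovered from the deposited values, which are read counts scaled to the library total and to a factor per library (scaled CPM). No value has a replicate within its group. The fibroblast genes Col1a1 and Pdgfra were abundant in all 4 libraries, at 3371 CPM or more and 236 CPM or more. Lum was low, at 6.54 and 0.179 CPM in LnF1 water and 1,3BD and at 0.695 and 0.0750 CPM in ObF1. Dcn stood at 328 and 68.7 CPM in LnF1 water and 1,3BD and at 63.9 and 81.1 CPM in ObF1. The summed level of the 9 fibroblast and progenitor markers was 27352 and 28227 CPM in water, LnF1 first, and 12987 and 9474 CPM with 1,3BD in the same order, with Dpp4 under 1 CPM in all 4. Most of that sum was Col1a1 and Col3a1, at 16522 and 9400 CPM in LnF1 water, and not every member was lower with 1,3BD: Pdgfra stood at 243 and 281 CPM in LnF1 water and 1,3BD and at 236 and 412 CPM in ObF1, and Cd34 at 13.5 and 11.9 CPM in LnF1 and 3.56 and 14.6 CPM in ObF1. Of the other cell types, 6 of 8 blood markers, 4 of 5 mature adipocyte markers and all 5 epithelial markers stayed under 1 CPM, and Cd3e, Cd79b, Hbb-bs, Adipoq, Lep, Ucp1, Epcam, Krt8 and Krt5 had 0 reads, which allows at most 0.130 CPM. The fifth adipocyte marker, Plin1, stood at 0.0849 CPM in LnF1 water (2 reads) and 5.09 CPM in LnF1 1,3BD (142 reads), and at 0.0434 CPM (1 read) and 1.84 CPM (49 reads) in ObF1, so the sum of the 5 was higher with 1,3BD. The blood markers summed to 14.4 and 8.30 CPM in water and to 2.87 and 7.42 CPM with 1,3BD. The 7 mural and contractile markers summed to 9054 and 9786 CPM in water and to 148 and 226 CPM with 1,3BD, and the 6 endothelial markers to 24.7 and 25.1 against 3.12 and 5.44 CPM. Of 4 skeletal muscle markers Myh4 had 0 reads and Ckm at most 1, while their sum was 87.4 and 62.2 CPM in water, of which Acta1 gave 86.5 and 61.8, and 2.98 and 3.49 CPM with 1,3BD. The 4 Schwann cell markers summed to 6.75 and 18.9 against 2.80 and 1.31 CPM. Mitochondrial genes took 1.13% and 1.30% of reads in water and 2.78% and 5.80% with 1,3BD. These values moved with the treatment, and their part in the clock gene differences was not tested. In a bulk sample fewer cells of a type and less RNA per cell cannot be told apart.

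The first question was how the clock genes differ between 1,3BD and water. Per1, Per2, Cry1 and Nr1d2 were higher with 1,3BD in both offspring groups and passed, and Dbp, the output factor, was lower. The 4 higher genes are repressors in the loop, as are Per3, Cry2 and Nr1d1, which did not pass. The log2 differences of the latter were 0.58, 0.46 and 0.40, beside 0.52 for Arntl and 0.45 for Clock. Of the 10 genes, 4 passed as higher and 1 as lower in limma at an adjusted p under 0.05. Over all 12838 genes tested, 19.2% passed as higher and 24.8% as lower. The median log2 difference of the 10 genes was 0.55, beside -0.06 over all genes. All 9 genes other than Dbp had a positive difference in both offspring groups. Both 1,3BD libraries lay above both water libraries for 8 of the 10, which held for 33.8% of all genes, and below them for Dbp, as for 38.2% of all genes.

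**Figure D1:**
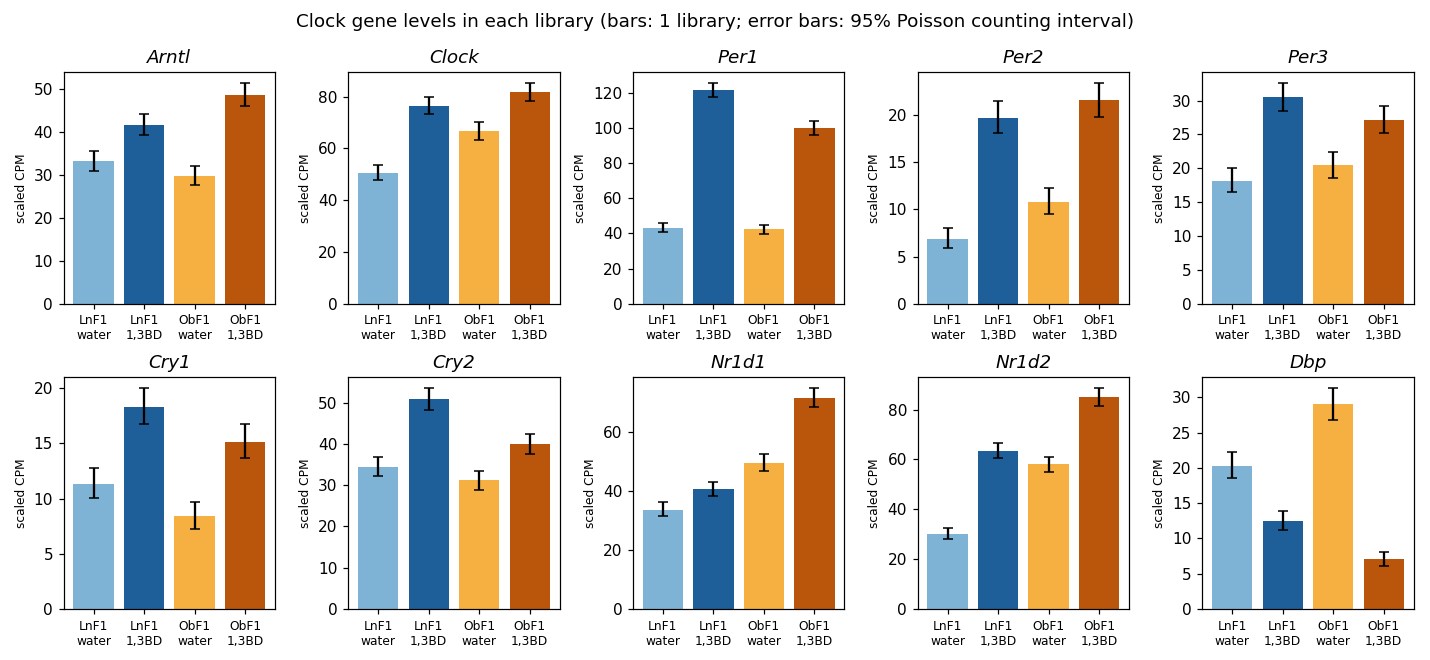
Scaled CPM of the 10 clock genes on the y axis of each panel, by library on the x axis. A bar is 1 library and its error bar the 95% Poisson interval for counting error only. Dbp is the 1 panel in which both 1,3BD bars are lower than both water bars.

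Neither gene of the positive arm, Arntl and Clock, passed. Arntl (ENSMUSG00000055116, chromosome 7, 113207465 to 113314126, plus strand, mm10) stood at 33.2 CPM in LnF1 water, 41.6 in LnF1 1,3BD, 29.8 in ObF1 water and 48.7 in ObF1 1,3BD. The water libraries were the 2 low ones and did not overlap with the 1,3BD libraries, but the log2 difference of 0.52 (SE 0.22) did not pass (limma adjusted p = 0.0762). Clock (chromosome 5, 76209868 to 76304792, minus strand) stood at 50.5 and 76.5 CPM in LnF1 water and 1,3BD and at 66.6 and 81.7 CPM in ObF1. Its log2 difference was 0.45 (limma, SE 0.20, adjusted p = 0.0958). The LnF1 water library was the low one, and the other 3 lay closer together.

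Among the Period genes, Per1 had the largest fitted rise. Per1 (ENSMUSG00000020893, chromosome 11, 69095217 to 69109960, plus strand), the Period gene known for rapid induction by hormones, stood at 43.1 CPM in LnF1 water (1016 reads, 95% counting interval 40.5 to 45.9) and at 121 CPM in LnF1 1,3BD (3383 reads, 117 to 125). In ObF1 it stood at 42.3 CPM in water (973 reads, 39.7 to 45.0) and 99.7 CPM in 1,3BD (2659 reads, 96.0 to 104). The water libraries were alike and both 1,3BD libraries were far above them, 2.81-fold in LnF1 and 2.36-fold in ObF1. The log2 difference was 1.36 (limma, SE 0.20, adjusted p = 0.000365), and 5.39% of all genes tested had a higher one.

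Per2 (chromosome 1, 91415982 to 91459324, minus strand), the Period gene whose loss weakens the rhythm most, had the fewest reads of the Period genes. It stood at 6.88 CPM in LnF1 water (162 reads, 5.86 to 8.02), 19.7 in LnF1 1,3BD (550 reads, 18.1 to 21.4), 10.8 in ObF1 water (249 reads, 9.52 to 12.2) and 21.6 in ObF1 1,3BD (575 reads, 19.8 to 23.4). The 1,3BD libraries were close to each other, and the LnF1 water library was the lowest. Per2 rose by a log2 difference of 1.25 (limma, SE 0.26, adjusted p = 0.00276), which did not pass without the LnF1 water library (0.93, limma adjusted p = 0.122). A fit on 3 libraries also drops the term for offspring group, and with that term alone dropped Per2 passed (limma adjusted p = 0.0137). Per3 (chromosome 4, 151003652 to 151044665, minus strand), a Period gene that the core loop can do without, stood at 18.2, 30.5, 20.4 and 27.2 CPM in LnF1 with water, LnF1 with 1,3BD, ObF1 with water and ObF1 with 1,3BD. The 1,3BD libraries were again the 2 high ones, at a log2 difference of 0.58 (SE 0.23) that did not pass in limma (adjusted p = 0.0609) but passed in limma voom (0.0431) and edgeR (0.0464).

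Of the cryptochromes, which are the stronger repressors of the ARNTL and CLOCK pair, Cry1 passed and Cry2 did not. Cry1 (chromosome 10, 85131700 to 85185064, minus strand) stood at 11.3 CPM in LnF1 water, 18.3 in LnF1 1,3BD, 8.43 in ObF1 water and 15.1 in ObF1 1,3BD. Its log2 difference was 0.76 (limma, SE 0.25, adjusted p = 0.0279), with both 1,3BD libraries above both water libraries. The call ended when offspring group was dropped from the model with all 4 libraries kept (limma adjusted p = 0.0631). It was not made in any fit on 3 libraries, which also lack that term, at adjusted p-values of 0.0731 without ObF1 1,3BD, 0.124 without LnF1 water, 0.151 without LnF1 1,3BD and 0.320 without ObF1 water. Cry2 (chromosome 2, 92403646 to 92434043, minus strand) stood at 34.5 and 50.8 CPM in LnF1 and at 31.2 and 40.0 CPM in ObF1, a log2 difference of 0.46 (limma, SE 0.21, adjusted p = 0.102). Both genes were highest in LnF1 1,3BD and lowest in ObF1 water.

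The REV-ERB genes, which encode nuclear receptors that repress Arntl, gave unlike values in LnF1, a gap between genes that was not tested. Nr1d2 (REV-ERB beta, chromosome 14, 18204054 to 18239127, minus strand) stood at 30.2 CPM in LnF1 water (712 reads, 28.0 to 32.5), 63.4 in LnF1 1,3BD (1768 reads, 60.5 to 66.4), 58.0 in ObF1 water (1335 reads, 54.9 to 61.2) and 85.0 in ObF1 1,3BD (2268 reads, 81.6 to 88.6). The LnF1 water library was far below the other 3, and the counting intervals of LnF1 1,3BD and ObF1 water overlapped. Nr1d2 rose by a log2 difference of 0.81 (limma, SE 0.22, adjusted p = 0.0112). The call ended with offspring group alone dropped from the model (limma adjusted p = 0.0834) and with the mean-variance trend off (0.0543). In the fits on 3 libraries, which also lack that term, it was not made without LnF1 water (0.34, limma adjusted p = 0.503), without LnF1 1,3BD (1.02, 0.130) or without ObF1 1,3BD (0.60, 0.362). Nr1d1 (REV-ERB alpha, chromosome 11, 98767932 to 98775333, minus strand) stood at 33.8 and 40.6 CPM in LnF1 water and 1,3BD and at 49.8 and 71.8 CPM in ObF1. It is the 1 member whose treatment groups overlapped, and its log2 difference of 0.40 (SE 0.21) did not pass (limma adjusted p = 0.147). Without ObF1 1,3BD the difference was -0.01.

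Dbp ran against the other 9 genes. Dbp (ENSMUSG00000059824, chromosome 7, 45705088 to 45710203, plus strand) stood at 20.3 CPM in LnF1 water (478 reads, 18.5 to 22.2) and 12.5 CPM in LnF1 1,3BD (349 reads, 11.2 to 13.9). In ObF1 it stood at 29.0 CPM in water (668 reads, 26.9 to 31.3) and 7.05 CPM in 1,3BD (188 reads, 6.08 to 8.13). The ObF1 libraries were at once the highest and the lowest of the 4. Dbp fell by 1.36 on the log2 scale (limma, SE 0.32, adjusted p = 0.00702), 2.57-fold. The difference was -0.69 in LnF1 and -2.03 in ObF1, and it did not pass without ObF1 water (-1.10, limma adjusted p = 0.122) or without ObF1 1,3BD (-0.95, limma adjusted p = 0.0544). With offspring group alone dropped from the model it passed (limma adjusted p = 0.0162).

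**Figure D2:**
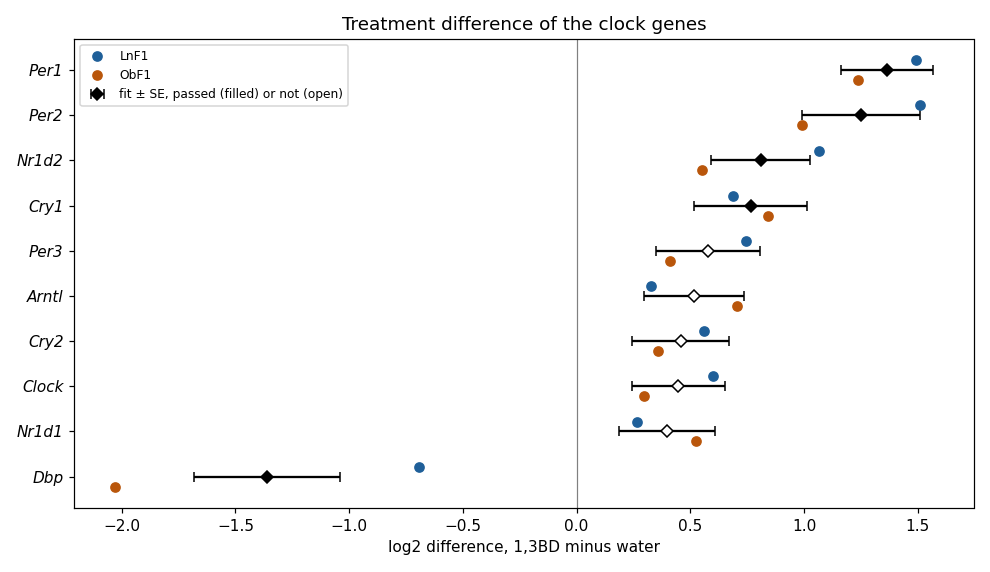
Log2 difference, 1,3BD minus water, on the x axis for each clock gene on the y axis. Circles are the differences of 2 single libraries in LnF1 and ObF1, and diamonds the limma value with its SE, filled where the adjusted p was under 0.05. Per1, Per2, Nr1d2 and Cry1 are filled on the right, and Dbp is filled on the left with its 2 circles far apart.

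Scaling bore on how many of these genes passed. With library totals in place of the deposited factors the median gene shifted from -0.06 to 0.19 on the log2 scale, 3687 genes passed as higher and 2270 as lower in place of 2466 and 3189, and all 9 genes other than Dbp passed as higher. A change of factors shifts all genes by nearly the same amount, so differences relative to the median gene could hardly move. They went from 1.423 to 1.421 for Per1 and from -1.302 to -1.305 for Dbp, which is no check on the scaling.

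The second question was how the clock genes differ between offspring groups. Nr1d1 and Nr1d2 had the largest differences, higher in ObF1 under both treatments, and neither passed. For Nr1d1 both ObF1 libraries lay above both LnF1 libraries, with a log2 difference of 0.69 (95% interval 0.23 to 1.15, limma adjusted p = 0.250). For Nr1d2 it was 0.68 (0.21 to 1.16, limma adjusted p = 0.267), with LnF1 1,3BD above ObF1 water. In the fits on 3 libraries, which lack the treatment term, the difference lay between 0.43 without ObF1 1,3BD and 0.95 without ObF1 water for Nr1d1, and between 0.15 without LnF1 water and 1.21 without LnF1 1,3BD for Nr1d2. Of the 10 genes 0 passed in limma, edgeR, DESeq2 or limma voom, and 2 had an unadjusted limma p under 0.05. Among all genes, 0.195% passed as higher and 0.101% as lower in ObF1. Groups that did not overlap were found for 1 of the 10, Nr1d1, as higher, beside 8.44% of all genes, and for 0 as lower, beside 8.02%, so the share is near the background.

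The other 8 genes gave log2 differences between -0.35 for Cry1 (95% interval -0.90 to 0.20) and 0.39 for Per2 (-0.18 to 0.95). Arntl had 0.04 (-0.45 to 0.52), Per3 0.00 (-0.50 to 0.51) and Clock 0.25 (-0.20 to 0.69). For Per1 it was -0.16 (-0.60 to 0.29), for Cry2 -0.25 (-0.71 to 0.22) and for Dbp -0.15 (-0.87 to 0.56). The median of the 10 was 0.02, beside 0.01 over all genes. The direction was not the same under both treatments for Per3, Arntl and Dbp, and with library totals Per3 and Arntl turned to -0.11 and -0.07.

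**Figure D3:**
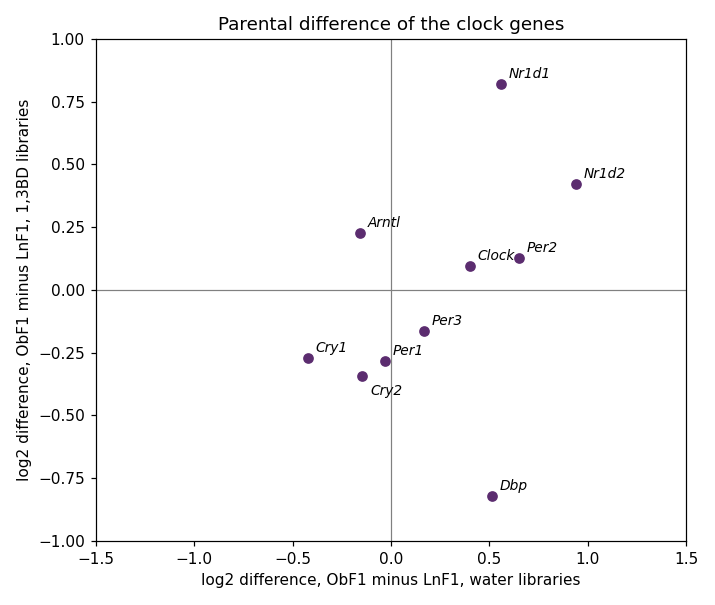
Log2 difference, ObF1 minus LnF1, between the water libraries on the x axis and between the 1,3BD libraries on the y axis, 1 point for each clock gene. Nr1d1 and Nr1d2 lie at the upper right and Dbp at the lower right, at 0.51 with water and -0.82 with 1,3BD.

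How the treatment difference itself varied between offspring groups could be described but not tested, since a model with that term leaves no residual degree of freedom. Dbp had the largest gap, at -1.34 on the log2 scale (ObF1 minus LnF1), a size that 5.06% of all genes exceeded. For the other 9 genes the gap lay between -0.52 for Per2 and Nr1d2 and 0.38 for Arntl, and between 34.5% and 77.6% of all genes had a larger one. The robust SD of this gap over all genes was 0.54. No clock gene had treatment differences of opposite sign in the 2 offspring groups, which occurred in 18.0% of all genes.

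Levels were compared between genes as CPM per kb of merged exon. Nr1d1 had the highest mean level (15.9), followed by Per1 (13.6), Nr1d2 (10.9), Cry2 (6.19), Dbp (5.75), Arntl (5.10), Clock (5.01), Cry1 (3.98), Per2 (2.52) and Per3 (2.50). The ranges over the 4 libraries overlapped for all 9 pairs of neighbours in this order, but they include the treatment difference and both genes of a pair were measured in the same libraries. Within libraries Nr1d2 lay above Cry2, Clock above Cry1 and Cry1 above Per2 in all 4. Nr1d1 lay above Per1, and Per1 above Nr1d2, in 3 of 4, and the other 4 pairs of neighbours kept their order in 2 of 4. Nr1d1 was first in every library other than LnF1 1,3BD, where Per1 was first at 21.5 CPM per kb against 13.2 for Nr1d1. Dbp took rank 3 in both water libraries, at 6.78 and 9.70 CPM per kb. It took rank 8 in LnF1 1,3BD, at 4.18, and rank 10 in ObF1 1,3BD, at 2.36.

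Ratios within a library do not depend on the scaling factors. The ratio of Arntl to Dbp per kb was 0.651 in LnF1 water and 1.32 in LnF1 1,3BD, and 0.409 in ObF1 water and 2.75 in ObF1 1,3BD. It was thus 2.03-fold higher with 1,3BD in LnF1 and 6.73-fold higher in ObF1. The ratio of Arntl to Nr1d1, its repressor, hardly moved with treatment, at 0.402 and 0.419 in LnF1 and 0.245 and 0.278 in ObF1, and was lower in both ObF1 libraries. Per1 to Per2 was 6.52 and 6.40 in LnF1 and 4.06 and 4.81 in ObF1, so both Period genes moved by similar factors with treatment. Per2 to Per3 went from 0.621 to 1.06 in LnF1 and from 0.869 to 1.30 in ObF1. Cry1 to Cry2 stayed between 0.512 and 0.717, and Arntl to Clock between 0.816 and 1.20.

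**Figure D4:**
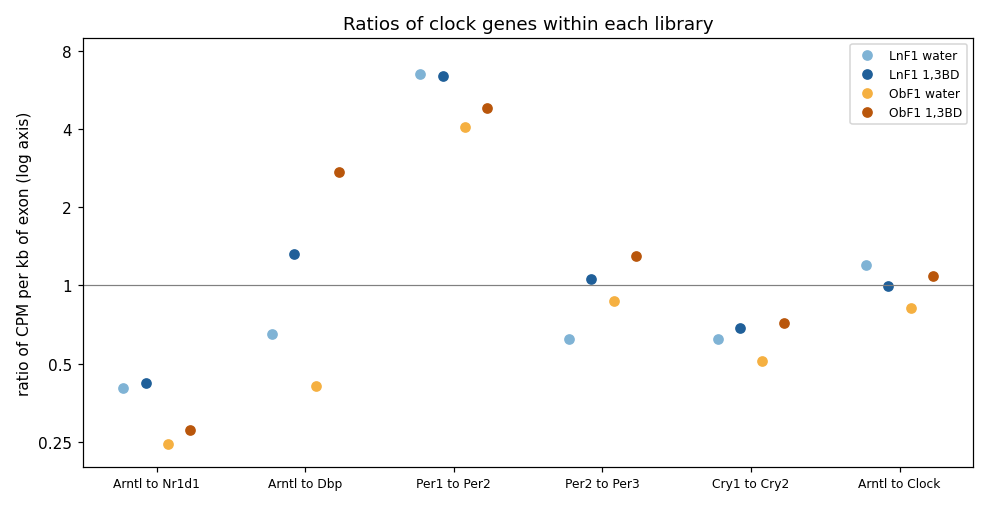
Ratio of CPM per kb of exon for 6 pairs of clock genes (x axis), 1 point per library, on a log y axis. The ratio of Arntl to Dbp spreads most, from 0.409 in ObF1 water to 2.75 in ObF1 1,3BD.

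Some of these genes share exons with a neighbour on the other strand, and whether counting used strand is not given in the sources used here. The neighbour Sphk2 covers 18.0% of the exon bases of Dbp, and stood at 26.9 and 34.4 CPM in LnF1 water and 1,3BD and at 28.0 and 26.6 CPM in ObF1. The neighbour Thra covers 8.55% of those of Nr1d1, and stood at 104 and 47.3 CPM in LnF1 and at 63.1 and 40.1 CPM in ObF1. The part of shared reads in the values of Dbp and Nr1d1 was not tested. Cry2 shares 4.67% and Arntl 0.439% of exon bases with antisense transcripts at 1.51 CPM or less.

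Other transcription factors of the clock were given by a list of 12, of which 11 were tested. Of these 3 rose with 1,3BD, 0 fell and 8 did not pass, beside 19.2% higher and 24.8% lower over all genes, with a median of 0.11 beside -0.06 over all genes. Treatment calls in either direction numbered 4 in edgeR, 2 in DESeq2 and 4 in limma voom. Rora, an activator that competes with the REV-ERB proteins at ROR elements, stood at 46.3 and 137 CPM in LnF1 water and 1,3BD and at 67.8 and 185 CPM in ObF1 (log2 difference 1.51, limma adjusted p = 0.000142). Its relative Rorb rose at low levels, in LnF1 from 1.06 to 2.62 CPM and in ObF1 from 1.78 to 4.09. Hlf, a PAR bZIP factor like Dbp, moved the other way from it, from 0.424 to 1.61 CPM and from 0.695 to 3.67 CPM (log2 difference 2.01, limma adjusted p = 0.00468). Another PAR bZIP gene, Tef, did not pass (69.9, 83.2, 77.6 and 50.4 CPM in LnF1 with water, LnF1 with 1,3BD, ObF1 with water and ObF1 with 1,3BD), and it is named after its values were seen. The list held 0 genes that differed between offspring groups in limma, edgeR or DESeq2, with 2 at an unadjusted limma p under 0.05.

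The enzymes that set the lifetime of clock proteins rose in 4 of 13 with 1,3BD and fell in 0, beside 19.2% and 24.8% of all genes, with a median of 0.28. Prkaa2, a catalytic subunit of AMPK, which marks cryptochromes for breakdown, rose in LnF1 from 1.36 to 5.49 CPM and in ObF1 from 2.56 to 8.51. Gsk3b (log2 difference 0.78), Csnk1a1 (0.70) and Prkaa1 (0.68), kinases that act on clock proteins among many others, rose less. Csnk1d and Csnk1e, the main kinases of the PER proteins, were not among the genes that passed, at -0.45 (limma adjusted p = 0.0896) and -0.33 (0.194). Both are named after their values were seen. Between offspring groups 0 of 13 passed in limma, edgeR or DESeq2, with 0 at an unadjusted limma p under 0.05.

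Of 6 genes known as outputs of the clock in other tissues, 2 rose and 2 fell with 1,3BD, with a median of 0.19. With 19.2% of all genes higher and 24.8% lower, counts of this size in 6 genes lie near the background. Por, the reductase that serves cytochrome P450 enzymes, rose by a log2 difference of 1.86, and Nampt, the rate-limiting enzyme of NAD salvage, by 1.06. Cdkn1a, a cell cycle inhibitor gene, fell by 1.25 on the log2 scale. Between offspring groups 0 of 6 passed in limma and edgeR and 1 in DESeq2, with 1 at an unadjusted limma p under 0.05.

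Genes of the 2 signals known to induce Per1 directly were set beside it. Of 8 tested genes of the glucocorticoid list 6 rose, 1 fell and 1 did not pass with 1,3BD, beside 19.2% higher and 24.8% lower over all genes, with a median of 2.14, which is the same with Zbtb16 at its lower bound. Zbtb16 had 0 reads in both water libraries and was at least 382-fold higher in LnF1 and 305-fold higher in ObF1 against a floor of 3 reads per library. Klf9 rose by 2.30 and Pdk4 by 2.53 on the log2 scale, beside 1.36 for Per1, while Nr3c1, the glucocorticoid receptor gene itself, stood at 71.9 and 87.6 CPM in LnF1 and 110 and 102 CPM in ObF1. Of 6 cAMP and serum responsive genes 1 rose (Crem, 1.21), 2 fell (Fos, -0.98, and Nr4a1, -0.65) and 3 did not pass, with a median of 0.12, counts near the 19.2% and 24.8% of all genes. The part of either signal in the rise of Per1 was not tested. Between offspring groups both lists had 0 genes passing in limma, edgeR and DESeq2, with 2 and 0 at an unadjusted limma p under 0.05.

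**Figure D5:**
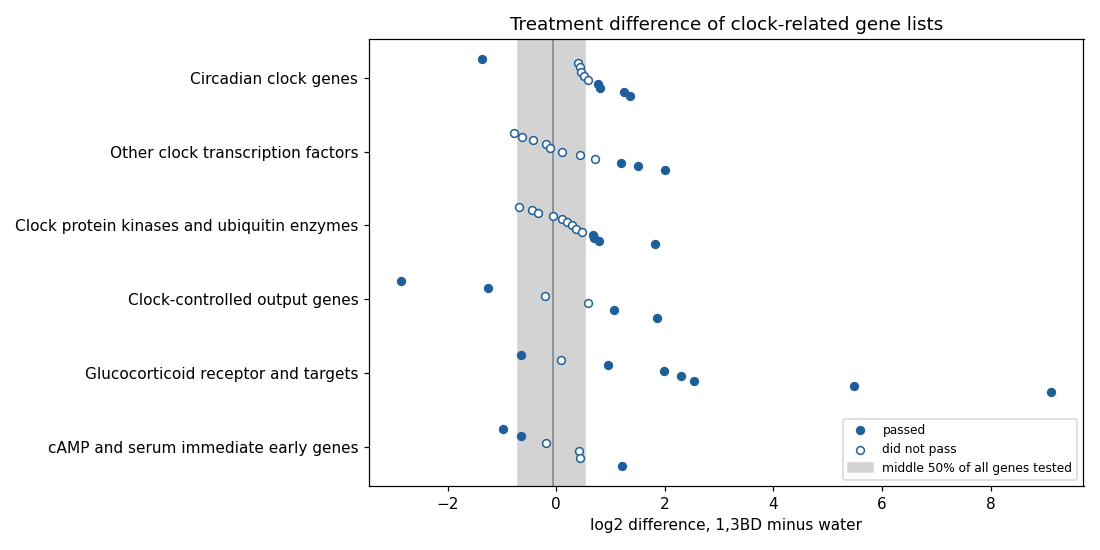
Log2 difference, 1,3BD minus water, on the x axis for the tested genes of the clock set and of 5 related lists (y axis). Filled circles passed in limma, open ones did not, and the grey band holds the middle 50% of all genes, from -0.69 to 0.53. Of the 10 clock genes, Dbp is the 1 to the left of the band. The point farthest to the right is Zbtb16, whose value depends on the pseudocount.

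Likeness of pattern was measured for Arntl, Nr1d1 and Dbp as the distance between log2 profiles centred over the 4 libraries, among 9949 other genes at a mean of at least 5 CPM. The 4 libraries give few ways to differ, so near neighbours are easily found. The nearest to Arntl were Washc2 (distance 0.02), Foxj2 (0.04) and Poc5 (0.04). Those nearest to Nr1d1 were Lrba (0.06), Usp53 (0.07) and Jcad (0.12). For Dbp they were Ddr1 (0.09), which stood at 68.3, 41.7, 90.1 and 22.8 CPM in LnF1 with water, LnF1 with 1,3BD, ObF1 with water and ObF1 with 1,3BD, Trib2 (0.12) and Mdga1 (0.17). Within the clock set the closest pair was Per3 and Clock (0.28). It was sought among pairs of 10 genes and the others among 9949 genes, so these distances cannot be ranked against each other.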

How the data were processed

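RNA from 4 pools of the stromal vascular fraction was extracted with TRIzol and made into libraries with a KAPA mRNA kit, per the labels' protocols. The submitters' processing notes name mm10, edgeR and DESeq2 without role. An aligner, a counter or an annotation is not given in the sources used here. The deposited signal is CPM scaled by a factor per column: 100% of values were whole multiples of the smallest in their column (relative tolerance 1e-06), which gave back reads, and the factors equalled edgeR TMM factors of those reads. Columns that name no treatment were matched to water.

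The main test was limma 3.58.1 (R 4.3.3; trend, robust moderation) on log2(CPM + 0.0796), a pseudocount worth 2 reads, over 12838 genes that reached 1 CPM in 2 or more libraries. Fold changes on this scale understate changes of low genes. The model was additive in treatment and offspring group with 1 residual degree of freedom. Before moderation, a gene's error is how far its difference failed to repeat in the other group. Moderation draws that error toward a trend over all genes, so SEs and p-values rest in large part on other genes. Cry1, with a gap of 0.15 between groups, thus had an SE of 0.25, and Dbp, with a gap of -1.34, an SE of 0.32. P-values were adjusted by Benjamini-Hochberg over all genes, at a threshold of 0.05. edgeR 4.0.16, DESeq2 1.42.0 and limma voom ran on recovered reads. Intervals of levels are exact Poisson 95% intervals for counting error. Members and lists were chosen with earlier results of these data known. Named are the 10 members, up to 4 passing genes of each list by the largest smaller single-library difference, the 3 nearest in pattern to Arntl, Nr1d1 and Dbp, and up to 3 markers per cell type by level. Further markers were named after their values were seen. A few list genes are not reported here. Lengths and coordinates are from GENCODE (mm10), promoters from RefSeq (GRCm38.p6).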

Additional observations from a re-analysis of the deposited data

Results flagged for a closer look

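For 3 clock genes the difference between offspring groups had opposite signs under the 2 treatments, which also held for 41.2% of all genes tested. Dbp was higher in ObF1 by 0.51 on the log2 scale with water and gave -0.82 with 1,3BD, a gap of -1.34. Arntl gave -0.15 with water and 0.23 with 1,3BD, a gap of 0.38. Per3 gave 0.17 with water and -0.16 with 1,3BD, a gap of -0.33. With 1 library per group these gaps were not tested.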

How the results depend on the processing

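Counting error rests on 162 to 3383 reads per clock gene and library, and with 1 library per group the spread between pools of one group was not measured. TMM factors gave the deposited values again. Under 17 alternatives Per1 passed as higher in all, Per2 in 16, Cry1 and Nr1d2 in 12 each, and Dbp passed as lower in 15. With library totals 9 clock genes were called higher in place of 4, and without offspring group as covariate 2, the calls of Cry1 and Nr1d2 being lost. Nr1d2 also fell short with the mean-variance trend off (adjusted p = 0.0543). The cause was not tested. Leaving out 1 library, which drops the covariate, gave 1 to 3 clock genes higher and 0 to 1 lower for treatment, and among all genes 668 to 1926 higher and 1232 to 2731 lower.

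For offspring group, 0 clock genes passed under any alternative run. Among all genes, the 25 higher and 13 lower became 8 and 5 with a pseudocount of 1 CPM, 196 and 156 without a filter, 10 and 5 among genes whose mean CPM was 5 or more, 69 and 48 with DESeq2, 0 and 0 with the trend off and without the treatment covariate, and 16 higher with library totals. Without 1 library there were 0 higher and 0 to 2 lower.

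Signs reversed for differences that had not passed. Between offspring groups Per3 turned to -0.11 with library totals, -0.0333 in limma voom and -0.0233 in edgeR, and Arntl to -0.0716 with library totals. Without 1 library the offspring difference ranged from -0.90 to 0.59 for Per1, -0.37 to 1.14 for Per2, -0.37 to 0.37 for Per3, -0.77 to 0.0715 for Cry1, -0.52 to 0.0339 for Cry2, -0.32 to 0.39 for Arntl, -0.0513 to 0.55 for Clock and -1.17 to 0.86 for Dbp. For treatment, Nr1d1 ranged from -0.0137 to 0.81. Exon length cancels in the change of a ratio with treatment, so leaving out the length correction could not alter that change. The labels carry no replicate numbers, and offspring group, a term of the model, already sets treatment against water within each group.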

Other observations

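Npas2, which can stand in for Clock as the partner of ARNTL, went in opposite directions with 1,3BD in the 2 offspring groups. It stood at 7.51 and 3.08 CPM in LnF1 water and 1,3BD and at 3.82 and 5.06 CPM in ObF1. Bhlhe40, a repressor that binds E-boxes, stood at 71.1 CPM in LnF1 water and between 122 and 136 CPM in the other 3 libraries. The LnF1 water library was thus the lowest for Bhlhe40 as it was for the members Clock, Per2, Per3, Nr1d1 and Nr1d2. Of these members, all but Nr1d1 had ObF1 water as the next lowest library, unlike Bhlhe40. The other members went another way: Per1, Cry1, Cry2 and Arntl were lowest in ObF1 water, and Dbp in ObF1 1,3BD. No share over all genes is given for the lowest library. Ciart, a repressor of the ARNTL and CLOCK pair, was lower in both 1,3BD libraries (3.87 and 4.95 CPM) than in both water libraries (7.26 and 7.78 CPM), the direction of Dbp, and did not pass in limma (adjusted p = 0.0607). Npas2, Bhlhe40 and Ciart were chosen after their values were seen.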
